A study of Mus musculus with 8 samples.

Results

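The ADAM and ADAMTS metalloproteinases were examined in glomeruli lacking the tetraspanin CD151. Members were all probes of the deposited array table whose gene symbol starts with Adam followed by a digit, or with Adamts. This gave 65 probes for 42 of the 18120 gene symbols, 28 ADAM and 14 ADAMTS genes. Total RNA came from glomerular isolates, collected by magnetic bead perfusion, of 4 Cd151+/+ and 4 Cd151-/- male mice, all of the FVB/N strain and 3 weeks old, and each mouse was hybridised to 1 Illumina MouseRef-8 v1.1 BeadChip array. Cd151-/- mice lack the gene in every cell, so a difference cannot be assigned to 1 glomerular cell type. At this age FVB/N mice without *Cd151* already have a damaged glomerular basement membrane, whereas the array comparison was made before scarring sets in.

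ADAMs are membrane-anchored proteins with a metalloproteinase and a disintegrin domain. The catalytically active ones act as sheddases, which release growth factors, cytokine receptors and adhesion molecules from the cell surface, and tetraspanins are among the proteins that carry them through the cell and hold them at the membrane. Several others have lost the zinc-binding site and serve in adhesion, many of them in sperm. ADAMTS enzymes are secreted and carry thrombospondin repeats. They cut proteoglycans, procollagens or von Willebrand factor in the matrix and in plasma. Since the glomerular basement membrane of these Cd151-/- mice is damaged, the question put to the arrays was whether the transcripts of these proteases differed between the genotypes.

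The unit of every level is normalised log2 signal, meaning the background-corrected and quantile-normalised brightness of a probe, to which 16 units were added before the logarithm. Because of this addition, differences between dim probes are understated. A probe counted as detected on an array where no more than 5% of the negative-control probes were at least as bright (detection p-value of 0.05 or lower). limma was fitted to the 14967 probes that at least 1 array detected, p-values were adjusted over all of these by the Benjamini-Hochberg method, and of several probes for 1 gene the brightest tested one is given unless stated. *Cd151* was detected by 3 probes in 4 of 4 Cd151+/+ and 0 of 4 Cd151-/- mice, with adjusted p-values from limma between 5.29e-10 and 3.51e-07. The arrays fell into 2 sets by background, a split known from earlier results on these data and not named in the labels. The lower-background set held Cd151+/+ mice 1 and 2 and Cd151-/- mice 3 and 4 (median signal 65.7 to 77.4), and the higher-background set held Cd151+/+ mice 3 and 4 and Cd151-/- mice 1 and 2 (143 to 164). Each set holds 2 mice of each genotype, so differences within the sets are given for the members named with values.

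At least 1 array detected 21 of the 42 members, or 50%, compared with 62.0% of all gene symbols. All 4 arrays of at least 1 genotype detected 9 members, or 21.4%, compared with 44.5% of all gene symbols. These 9 were *Adam15*, *Adam17*, *Adam19*, *Adam22*, *Adamts1*, *Adamts2*, *Adamts5*, *Adamts7* and *Adamts16*, of which all but *Adam19* and *Adamts7* were detected on all 8 arrays. Among the ADAMs known mainly from testis and epididymis, 12 of 16 were detected on no array, and the other 4 (*Adam4*, *Adam5*, *Adam29* and *Adam30*) on 1 to 3 arrays. Passing the filter on so few arrays separates a probe poorly from background, and 8 of the 21 tested members passed on 1 to 3 arrays. The neuronal ADAMs without protease activity, *Adam11* and *Adam23*, were not detected, while *Adam22*, a receptor for LGI proteins at synapses, was detected on all 8 arrays by 1 of its 3 probes.

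**Figure D1:**
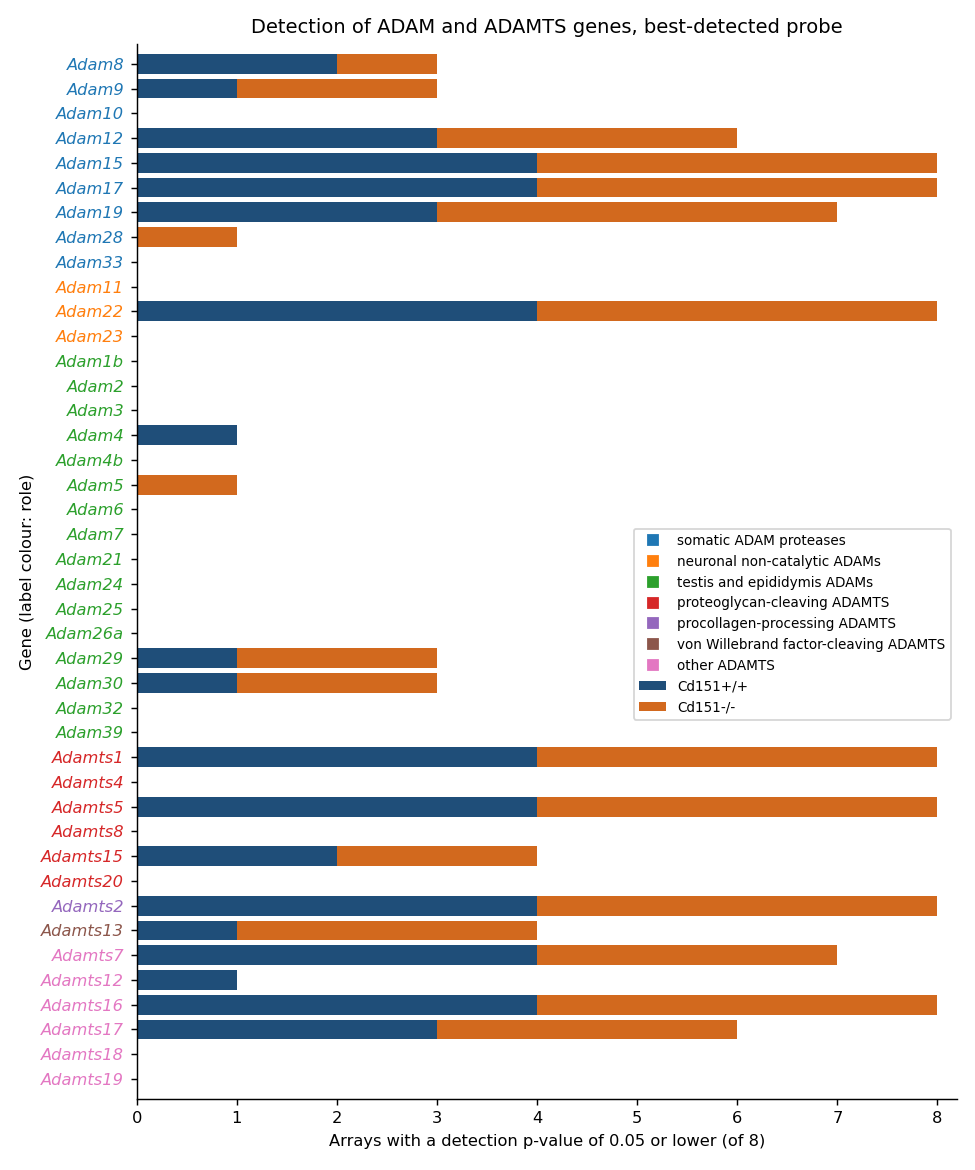
Detection of each of the 42 genes by its best-detected probe. The bars count the arrays that detected it, with the 4 Cd151+/+ arrays in blue and the 4 Cd151-/- arrays in orange, and gene labels are coloured by role. 7 genes reach 8 arrays, and 21 genes have no bar.

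*Adam10*, which encodes the sheddase that cleaves Notch receptors and cadherins, has 1 probe on the array (ILMN_1241149). Its normalised log2 signal was 4.60, 4.87, 4.56 and 4.56 in Cd151+/+ mice 1 to 4 and 4.69, 4.56, 4.72 and 4.86 in Cd151-/- mice 1 to 4. The detection p-value was never below 0.217, so this probe was not told apart from background in any mouse and allows no statement on the expression of the gene. *Adam33*, *Adamts4*, *Adamts8*, *Adamts18*, *Adamts19* and *Adamts20* were likewise not detected on any array.

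None of the 26 member probes tested passed an adjusted p of 0.05 in limma, compared with 0.0334% of all probes, and the lowest adjusted p of a member was 0.918. At an unadjusted p of 0.05, limma called 1 of the 21 tested members higher in Cd151-/- glomeruli, compared with 1.85% of all genes tested. It called 0 of 21 lower, compared with 2.55% of all genes. No tested member had groups that did not overlap, compared with 0.937% of all genes that were higher and 1.33% that were lower in every Cd151-/- mouse. The median log2 difference of the 21 members was 0.02, with 14 above and 7 below 0, and that of all genes was −0.0020. The differences ran from −0.52 for *Adamts16* to 0.76 for *Adamts2*. For the 9 members detected on all 4 arrays of a genotype, the 95% intervals together spanned −1.25 to 1.51 on the log2 scale, and 5 of the 9 intervals lay within 1 of 0. The precision of these values is limited by 4 arrays per genotype.

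**Figure D2:**
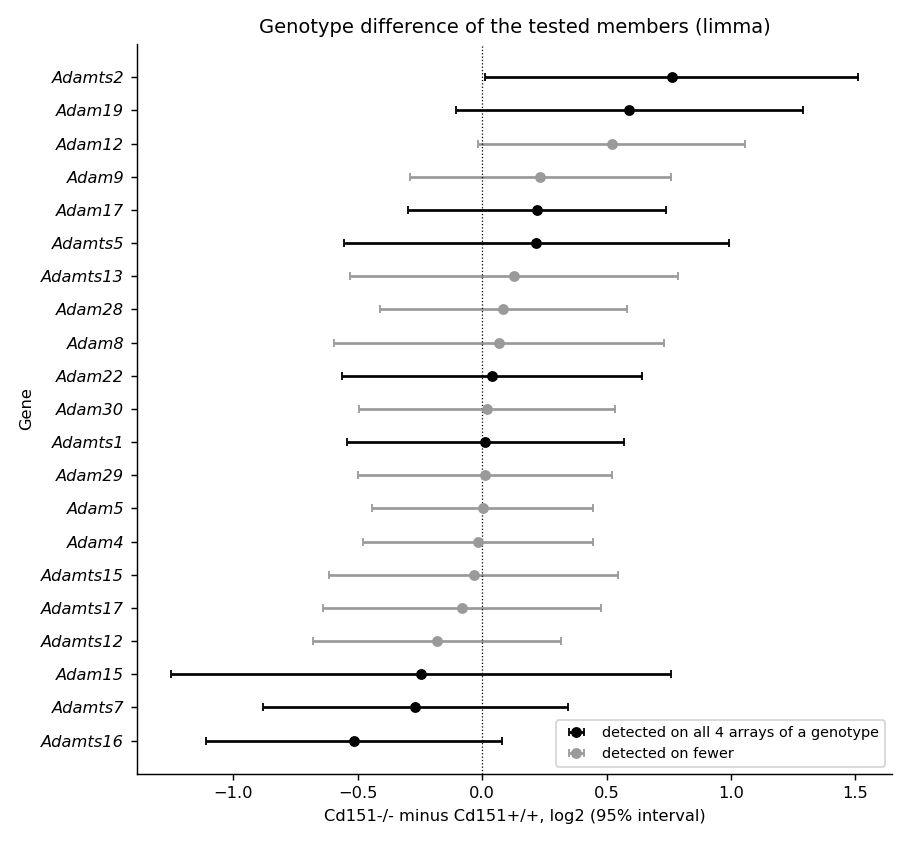
Log2 difference between Cd151-/- and Cd151+/+ glomeruli for the 21 tested members, ordered by size. Points are limma estimates with 95% intervals from 4 mice per genotype, in black for genes detected on all 4 arrays of a genotype and in grey for the others. Only the interval of Adamts2, from 0.01 to 1.51, leaves out 0.

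*Adamts2*, the enzyme that removes the amino-terminal propeptide of fibrillar procollagens, was the member called higher. Its brightest probe (ILMN_2729103) gave a normalised log2 signal of 8.71, 8.18, 7.26 and 7.14 in Cd151+/+ mice 1 to 4 and 8.60, 8.69, 8.80 and 8.24 in Cd151-/- mice 1 to 4. Cd151+/+ mice 3 and 4 stood below all others, and the other 2 Cd151+/+ mice lay among or near the Cd151-/- values, so the groups overlapped. The mean was 7.82 ± 0.76 (SD, n = 4) in Cd151+/+ and 8.58 ± 0.24 (SD, n = 4) in Cd151-/- glomeruli, a log2 difference of 0.76 (standard error 0.34) and a fold of 1.70. The unadjusted p from limma was 0.0472 and the adjusted p 0.918, while the exact permutation test, two-sided over the 70 relabelings of the 8 mice, gave p = 0.143. The smallest p this design allows in that test is 0.0286.

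The difference in *Adamts2* lay mostly in 1 set of arrays. In the lower-background set the deposited, unnormalised signals were 273 and 193 in Cd151+/+ mice 1 and 2 and 309 and 251 in Cd151-/- mice 3 and 4. In the higher-background set they were 304 and 381 in Cd151+/+ mice 3 and 4 and 914 and 949 in Cd151-/- mice 1 and 2. On the normalised scale the genotypes differed by 0.08 within the lower-background set and by 1.45 within the higher-background set, with 2 mice of each genotype in each. The interaction of genotype with the set of arrays, tested in limma after the data were seen, was 1.37 (unadjusted p = 0.00697, adjusted p = 0.977).

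A dimmer probe for *Adamts2* (ILMN_1226259), detected in 3 Cd151+/+ and 4 Cd151-/- mice, showed the same pattern. It read 6.62, 6.61, 5.10 and 5.81 in Cd151+/+ mice 1 to 4 and 6.60, 6.64, 7.07 and 6.27 in Cd151-/- mice 1 to 4. The lowest values were again those of Cd151+/+ mice 3 and 4, and the log2 difference was 0.61 (standard error 0.34, unadjusted p = 0.101 from limma). Within the lower-background set it was 0.06 and within the higher-background set 1.17. Both probes read the same RNA samples and are not independent of each other, and the other probe of the gene was not detected. In a fit blocked on the array set the brighter probe had an unadjusted p of 0.0242 in limma (adjusted p = 0.398). The call was lost under other processing, since the unadjusted p was 0.128 with array weights, and it was above 0.05 without Cd151+/+ mouse 3 or 4 and without Cd151-/- mouse 1, 2 or 3.

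**Figure D3:**
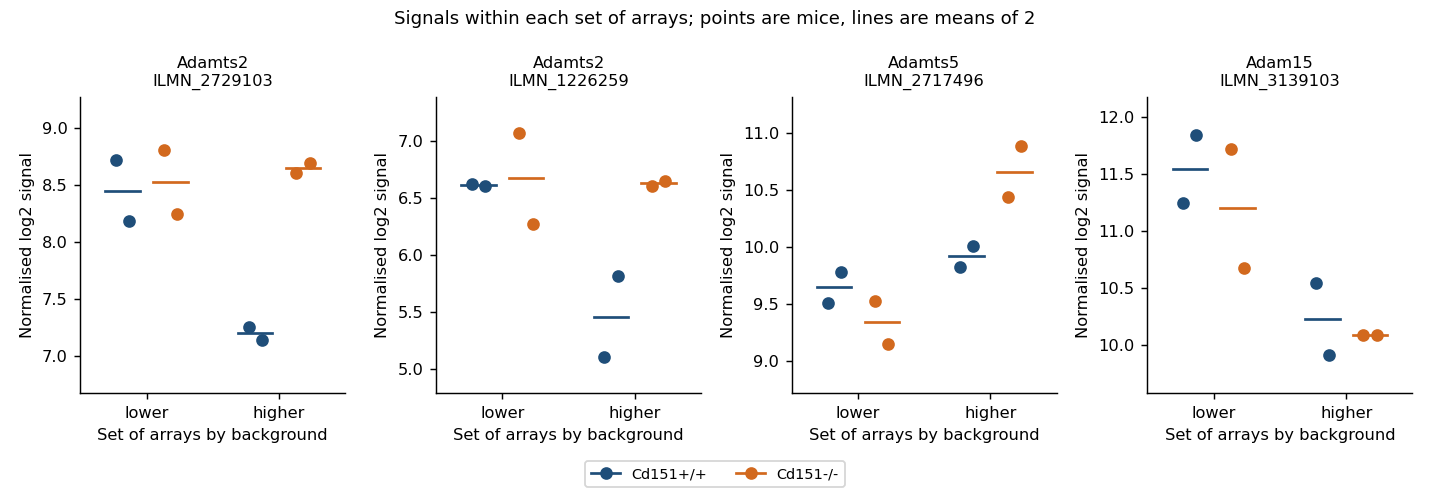
Normalised log2 signal within the lower- and the higher-background set of arrays for both detected probes of Adamts2 and for Adamts5 and Adam15. Points are single mice, 2 per genotype and set, and lines are their means. For Adamts2 the genotypes differ by 1.45 and 1.17 in the higher-background set and by 0.08 and 0.06 in the lower, whereas Adam15 is lower in the higher-background set in both genotypes.

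The proteoglycan-cleaving enzymes *Adamts1* and *Adamts5*, both versicanases and aggrecanases whose genes lie next to each other, were detected in every mouse. *Adamts1* (ILMN_2761082) read 9.08, 9.78, 9.49 and 8.73 in Cd151+/+ mice 1 to 4 and 9.41, 9.42, 8.99 and 9.32 in Cd151-/- mice 1 to 4. The 4 Cd151-/- values lay inside the range of the Cd151+/+ values, and the log2 difference was 0.01 (95% interval −0.54 to 0.57, adjusted p = 0.994 from limma). This value has no stable sign, and became −0.17 without Cd151+/+ mouse 4. It was −0.28 within the lower- and 0.30 within the higher-background set. The dimmer probe for *Adamts1*, detected on 3 arrays, went the opposite way by −0.35 (unadjusted p = 0.167 from limma).

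*Adamts5* (ILMN_2717496) read 9.52, 9.78, 9.83 and 10.01 in Cd151+/+ mice 1 to 4 and 10.44, 10.89, 9.53 and 9.15 in Cd151-/- mice 1 to 4. Cd151-/- mice 1 and 2 were above every Cd151+/+ mouse, mouse 4 was below them all, and the spread was larger in Cd151-/- (SD 0.80, n = 4) than in Cd151+/+ glomeruli (SD 0.21, n = 4), a difference in spread that was not tested. The log2 difference was 0.22 (95% interval −0.56 to 0.99, adjusted p = 0.927 from limma), and it became −0.08 without Cd151-/- mouse 2 and 0.50 without Cd151-/- mouse 4. With array weights it was 0.63 (unadjusted p = 0.0460 and adjusted p = 0.148 from limma). Within the lower-background set it was −0.31 and within the higher-background set 0.74. The interaction with the set of arrays was 1.05 (unadjusted p = 0.0191, adjusted p = 0.977 from limma). *Adamts2* and *Adamts5* were the only 2 of 21 tested members with an interaction at an unadjusted p below 0.05, compared with 3.11% of all genes, and no gene passed adjustment. Of the same enzyme group, *Adamts15* was detected in 2 mice of each genotype.

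Sheddases were represented by *Adam17* and *Adam15*. *Adam17* encodes the enzyme that releases TNF and the ligands of the EGF receptor. Its probe (ILMN_2594718) read 8.99, 9.13, 9.65 and 9.19 in Cd151+/+ mice 1 to 4 and 9.58, 9.86, 9.32 and 9.09 in Cd151-/- mice 1 to 4. The groups overlapped over most of their range, and the log2 difference was 0.22 (95% interval −0.30 to 0.74, adjusted p = 0.918 from limma). It was 0.14 within the lower- and 0.30 within the higher-background set. Its size depended on single mice, at 0.089 without Cd151-/- mouse 2 and 0.36 without Cd151+/+ mouse 3. With array weights the difference was 0.43 (unadjusted p = 0.0468 and adjusted p = 0.149 from limma), in a setting that called 2343 of 14967 probes higher and 2503 lower. A change of 2-fold in either direction lay outside the 95% interval.

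*Adam15*, a disintegrin protease of endothelial and smooth muscle cells, read 11.25, 11.84, 10.54 and 9.91 in Cd151+/+ mice 1 to 4 and 10.08, 10.08, 11.72 and 10.68 in Cd151-/- mice 1 to 4 (ILMN_3139103). The 4 highest values were the 4 arrays of the lower-background set. The genotype difference was −0.24 (95% interval −1.25 to 0.76, adjusted p = 0.938 from limma) and became 0.07 without Cd151+/+ mouse 2. With array weights it was −0.94 (unadjusted p = 0.0299 and adjusted p = 0.121 from limma), in a setting that called 2343 of 14967 probes higher and 2503 lower. Within the lower-background set the genotype difference was −0.35 and within the higher-background set −0.14. The higher-background set was lower than the other by 1.22 on the log2 scale in limma with genotype in the same fit (adjusted p = 0.00952). On the deposited scale, before normalisation, the signals were 1394 and 2009 in Cd151+/+ and 2037 and 1195 in Cd151-/- mice of the lower-background set, and 1950 and 1826 in Cd151+/+ and 2282 and 2231 in Cd151-/- mice of the higher-background set. These deposited ranges overlapped, while the median signal of the arrays did not, so the difference between the sets for this probe is one relative to the other probes of each array. A probe of the gene (ILMN_2718144) that no Cd151+/+ and 2 Cd151-/- arrays detected allows no fold. It went the opposite way, with means of 4.64 in Cd151+/+ and 5.10 in Cd151-/- glomeruli. This probe was tested only through the genotype in which it was higher.

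Over the 21 tested members, the difference between the sets of arrays was larger than that between the genotypes, with a median absolute log2 difference of 0.41 for the sets and 0.13 for the genotypes. Over all genes these medians were 0.35 and 0.20. Between the sets, limma called *Adamts5* higher (0.80, adjusted p = 0.0386) and *Adam15* lower in the higher-background set, 1 of 21 members in each direction, compared with 12.3% of all genes higher and 11.3% lower. In a fit blocked on the array set, 3 of 21 members were higher in Cd151-/- glomeruli at an unadjusted p of 0.05 in limma (*Adamts2*, *Adam19* and *Adam12*), compared with 5.20% of all genes, and 0 were lower, compared with 5.75%. None of the member probes passed adjustment in that fit, where 0.0535% of all probes did, and the lowest adjusted p was 0.398. What sets the arrays apart is not given in the labels, and its part in these values was not tested beyond the fits given here.

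*Adam19* and *Adam12*, relatives of each other known for shedding neuregulin and heparin-binding EGF, came next in the order of differences. *Adam19* (ILMN_2772155) read 5.16, 5.48, 6.43 and 5.43 in Cd151+/+ mice 1 to 4 and 6.46, 6.66, 6.12 and 5.62 in Cd151-/- mice 1 to 4. It was detected in 3 and 4 mice, 1 Cd151+/+ mouse read as high as the Cd151-/- mice, and the log2 difference was 0.59 (standard error 0.32, adjusted p = 0.918 from limma). Within the sets it was 0.55 (lower background) and 0.63 (higher background). It was 0.85 without Cd151+/+ mouse 3 (unadjusted p = 0.0121 from limma) and 0.42 without Cd151-/- mouse 2 (unadjusted p = 0.225 from limma). With array weights the difference was 0.93 (unadjusted p = 0.00342 and adjusted p = 0.0841 from limma), in a setting that called 2343 of 14967 probes higher and 2503 lower. *Adam12* (ILMN_1243254) read 5.39, 5.59, 5.15 and 5.22 in Cd151+/+ mice 1 to 4 and 5.97, 5.81, 6.35 and 5.32 in Cd151-/- mice 1 to 4, and was detected in 3 mice of each genotype. Of the Cd151-/- mice, 3 were above every Cd151+/+ mouse, and the log2 difference was 0.52 (standard error 0.24, unadjusted p = 0.0556 and adjusted p = 0.918 from limma). Within the lower-background set the difference in *Adam12* was 0.34 and within the higher-background set 0.70. Leaving out 1 mouse gave 0.38 (without Cd151-/- mouse 3) to 0.73 (without Cd151-/- mouse 4). In the exact permutation test p was 0.0857 for *Adam12* and 0.143 for *Adam19*. Both probes were close to the lowest signal that counted as detected, which was 5.15 to 5.37 depending on the array.

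**Figure D4:**
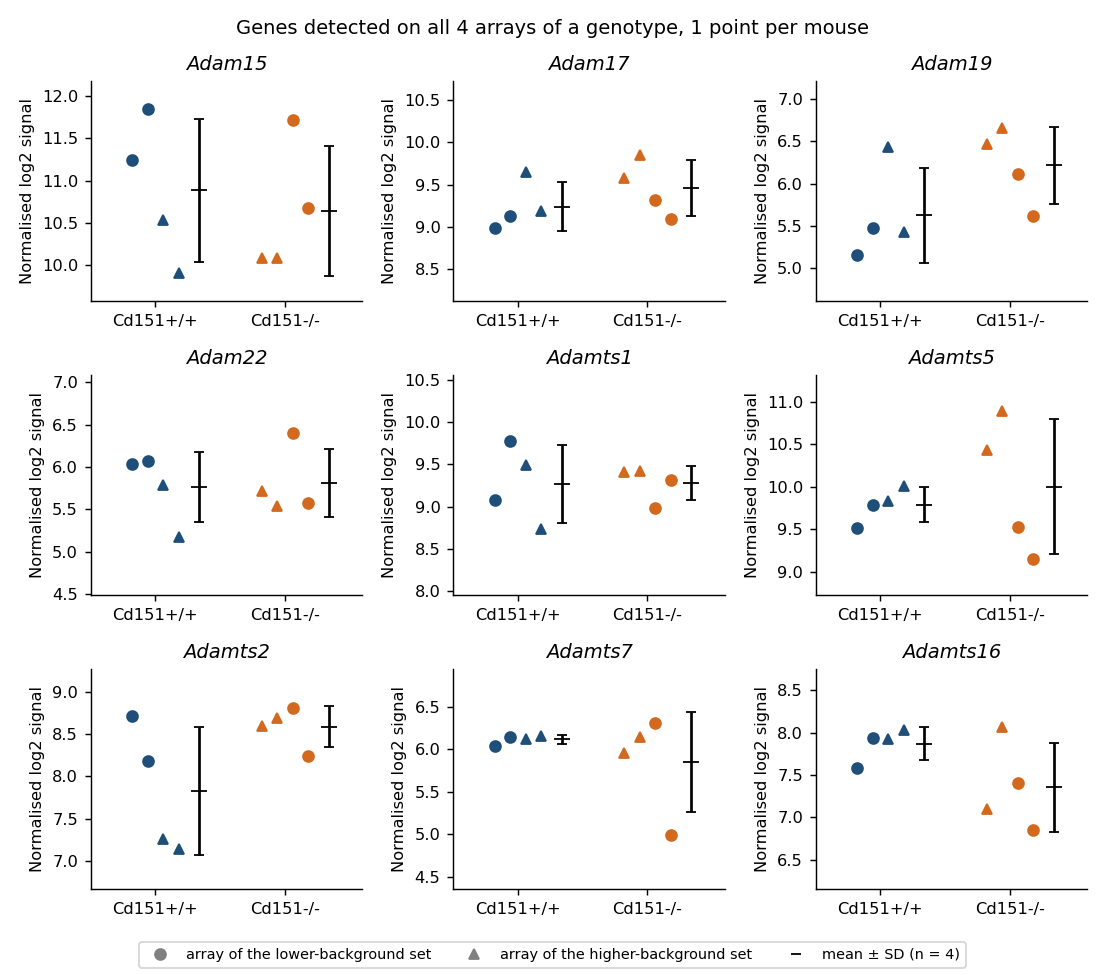
Normalised log2 signal in each mouse for the 9 members detected on all 4 arrays of a genotype. Blue is Cd151+/+, orange is Cd151-/-, circles are arrays of the lower- and triangles of the higher-background set, and bars are the mean ± SD of 4 mice. The axes span the same range of log2 units in each panel, and in no panel are the genotypes apart.

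*Adamts16*, a secreted protease that can cleave fibronectin, had the largest difference in the lower direction. Its probe (ILMN_2987834) read 7.58, 7.93, 7.93 and 8.03 in Cd151+/+ mice 1 to 4 and 7.10, 8.06, 7.41 and 6.85 in Cd151-/- mice 1 to 4. Below every Cd151+/+ mouse were 3 Cd151-/- mice, while mouse 2 was the highest of all 8. The log2 difference was −0.52 (standard error 0.27, 95% interval −1.11 to 0.08, adjusted p = 0.918 from limma), with p = 0.143 in the exact permutation test. It was −0.63 within the lower- and −0.40 within the higher-background set, and depended on single Cd151-/- mice. It was −0.75 without Cd151-/- mouse 2 (unadjusted p = 0.00861 from limma) and −0.35 without Cd151-/- mouse 4 (unadjusted p = 0.225 from limma).

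*Adamts7*, which degrades cartilage oligomeric matrix protein and acts in vascular smooth muscle, was nearly level in Cd151+/+ mice, at 6.05, 6.15, 6.13 and 6.16 for mice 1 to 4. Cd151-/- mice 1 to 4 read 5.96, 6.14, 6.32 and 4.99, the last of them not detected. The log2 difference of −0.27 (adjusted p = 0.918 from limma) rested on that mouse and was 0.02 without it. It was −0.44 within the lower-background set, which holds that mouse, and −0.09 within the other.

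Of the remaining members with values, *Adam9*, a sheddase, was detected in 1 Cd151+/+ and 2 Cd151-/- mice and had a log2 difference of 0.23 (adjusted p = 0.918 from limma), with 0.30 within the lower- and 0.17 within the higher-background set. It was 0.058 without Cd151+/+ mouse 2. *Adamts13*, the protease that trims von Willebrand factor multimers, was detected in 1 Cd151+/+ and 3 Cd151-/- mice. It read 4.85, 4.77, 5.87 and 4.88 in Cd151+/+ mice 1 to 4 and 5.19, 5.52, 4.65 and 5.53 in Cd151-/- mice 1 to 4, and the log2 difference of 0.13 (adjusted p = 0.953 from limma) became −0.05 when scaling to a common 75th percentile replaced quantile normalisation. It was 0.28 within the lower- and −0.02 within the higher-background set, and leaving out 1 mouse gave 0.021 (without Cd151-/- mouse 2) to 0.38 (without Cd151+/+ mouse 3). *Adamts12* was detected in 1 Cd151+/+ mouse and *Adam28* in 1 Cd151-/- mouse, which gives no fold for either. *Adamts12* read 4.77, 5.46, 4.86 and 4.72 in Cd151+/+ mice 1 to 4 and 4.70, 4.81, 4.54 and 5.04 in Cd151-/- mice 1 to 4. Its log2 difference was −0.18 (adjusted p = 0.920 from limma), with −0.33 within the lower- and −0.04 within the higher-background set. It was tested only through the genotype in which it was higher. *Adam8*, a protease of leukocytes, was detected in 2 Cd151+/+ mice and 1 Cd151-/- mouse, and *Adamts17* in 3 mice of each genotype.

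The labelled tissue was checked against marker lists, with the brightest probe for each gene. Podocyte markers were detected on all 8 arrays for 6 of 7 genes on the array, among them *Wt1* and *Podxl*, as were 6 of 7 endothelial and 5 of 5 mesangial and smooth muscle markers. Tubular RNA was also present, since 6 of 8 proximal tubule markers and 3 of 5 markers of later segments were detected on all 8 arrays. The summed normalised signal of the proximal tubule list was 20827 to 60999 in Cd151+/+ mice and 40616 to 76317 in Cd151-/- mice. That of the mesangial and smooth muscle list was 14329 to 19577 in Cd151+/+ mice and 13482 to 22552 in Cd151-/- mice. For leukocytes, 3 of 8 markers were detected on all 8 arrays (*Cd68*, *Cd3e* and *Lyz2*, the last listed as *Lyzs*). On no array were 4 detected (*Ptprc*, *Itgam*, *Cd79a* and *Adgre1*, the last listed as *Emr1*). *Csf1r* was detected in 2 Cd151+/+ and 3 Cd151-/- mice. The sum of the leukocyte list was 837 to 1093 in Cd151+/+ mice and 726 to 1136 in Cd151-/- mice. That of the erythroid list (*Hba-a1*, *Hbb-b1* and *Alas2*) was 33311 to 47519 in Cd151+/+ mice and 15421 to 33287 in Cd151-/- mice. These ranges nearly touched but did not overlap, while the genotypes overlapped for each single gene of the list. *Alas2* differed by −2.54 and *Hba-a1* by −0.76 (unadjusted p = 0.00499 and 0.0180 from limma). *Hbb-b1*, detected in 1 Cd151-/- mouse, differed by −0.03. Also lower at an unadjusted p of 0.05 in limma were *Pdgfrb* (−0.75) and the podocyte marker *Plce1* (−0.57), compared with 2.55% of all genes. The adjusted p was 0.918 for each of these called markers. The part of tubular, mesangial or blood RNA in the member values was not tested. In such bulk RNA, fewer cells of a type and less RNA per cell cannot be told apart.

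Genes that act with these proteases were taken from 3 lists. The lists held 66 genes, 62 with a probe and 48 tested. In limma, 2 of the 48 were higher and 6 lower in Cd151-/- glomeruli at an unadjusted p of 0.05, compared with 1.85% and 2.55% of all genes, and none passed adjustment (lowest adjusted p 0.918). The groups did not overlap for 1 higher and 2 lower genes, compared with 0.937% and 1.33% of all genes.

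For maturation and inhibition, 12 of 16 genes were tested, 1 was higher and 1 lower, and the median log2 difference was −0.09. *Rhbdf2*, listed on the array as *Rhbdl6*, encodes iRhom2, which escorts ADAM17 out of the endoplasmic reticulum. It read 5.96, 6.00, 6.08 and 6.39 in Cd151+/+ mice 1 to 4 and 5.61, 5.61, 5.74 and 5.40 in Cd151-/- mice 1 to 4. The highest Cd151-/- mouse was below the lowest Cd151+/+ mouse. Every gene without overlap has p = 0.0286 in the exact permutation test, and lack of overlap was a rule for naming related genes. That p therefore adds nothing to the lack of overlap. The log2 difference was −0.52 (standard error 0.19, unadjusted p = 0.0208 and adjusted p = 0.918 from limma). It was −0.41 within the lower- and −0.63 within the higher-background set. *Timp1*, an inhibitor of many metalloproteinases, read 6.78, 6.83, 6.66 and 5.91 in Cd151+/+ mice 1 to 4 and 7.37, 6.98, 7.33 and 7.55 in Cd151-/- mice 1 to 4, again without overlap (log2 difference 0.76, adjusted p = 0.918 from limma). *Timp1* belongs to the genes that the study listed from these mice, so its direction is not independent evidence. *Timp3*, the matrix-bound inhibitor of ADAM17 and of several ADAMTS enzymes, was chosen after its values were seen and had a difference of 0.07 (95% interval −0.55 to 0.69, adjusted p = 0.968 from limma).

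**Figure D5:**
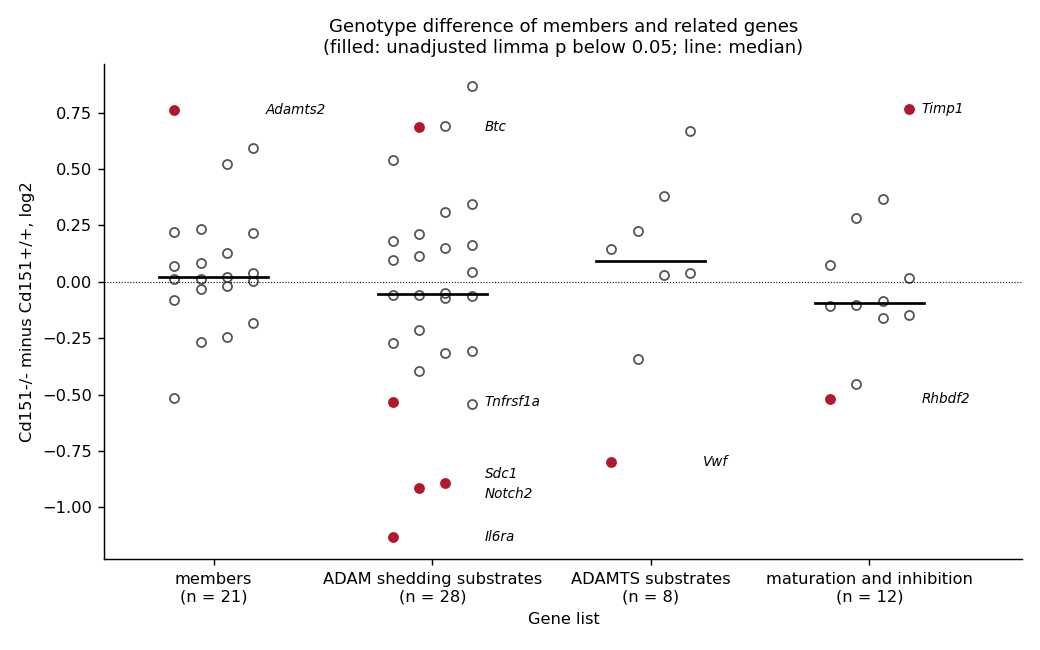
Log2 difference between Cd151-/- and Cd151+/+ glomeruli for the tested members and for 3 lists of genes that act with them. Each point is 1 gene, filled where the unadjusted limma p is below 0.05, and lines are medians. The medians lie at 0.02 for members, −0.05 for ADAM substrates, 0.09 for ADAMTS substrates and −0.09 for maturation and inhibition, and none of the filled genes passed adjustment.

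Among cell surface proteins that ADAMs shed, 28 of 35 genes were tested, with 13 above and 15 below 0 and a median log2 difference of −0.05. Of these, 1 was higher and 4 were lower at an unadjusted p of 0.05 in limma, compared with 1.85% and 2.55% of all genes. *Sdc1*, a heparan sulfate proteoglycan of the cell surface, read 7.66, 7.10, 7.32 and 6.78 in Cd151+/+ mice 1 to 4 and 6.20, 6.27, 6.87 and 5.94 in Cd151-/- mice 1 to 4. Only Cd151-/- mouse 3 overlapped with the Cd151+/+ mice, and the log2 difference was −0.89 (standard error 0.26, unadjusted p = 0.00619 and adjusted p = 0.918 from limma). *Il6ra*, the receptor for interleukin-6, differed by −1.13 (standard error 0.42, unadjusted p = 0.0211 from limma), with 1 Cd151+/+ mouse well above the rest at 8.57. *Notch2* differed by −0.91 (unadjusted p = 0.0425 from limma) and was detected in 4 Cd151+/+ and 2 Cd151-/- mice, and *Tnfrsf1a*, a receptor for TNF that the study also listed, differed by −0.53 with groups that did not overlap. *Btc*, a ligand of the EGF receptor, was detected in 1 Cd151+/+ and 4 Cd151-/- mice and differed by 0.68 (unadjusted p = 0.0129 from limma). The adjusted p from limma was 0.918 for each of these genes.

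Among ADAMTS substrates, 8 of 15 genes were tested, with 6 above and 2 below 0 and a median log2 difference of 0.09. Of these, 0 were higher and 1 was lower at an unadjusted p of 0.05 in limma, compared with 1.85% and 2.55% of all genes. *Vwf*, the substrate of ADAMTS13, read 6.89, 5.58, 5.24 and 5.06 in Cd151+/+ mice 1 to 4 and 4.61, 5.09, 4.86 and 5.01 in Cd151-/- mice 1 to 4. No Cd151-/- array detected it and 2 Cd151+/+ arrays did, so it was tested only through the genotype in which it was higher. The highest value by far was that of Cd151+/+ mouse 1, and the other 7 mice read close to or below the lowest signal that counted as detected. The unadjusted p from limma was 0.0481 and the exact permutation test gave p = 0.0571, and neither is read as a difference here. The summed signal of the endothelial list was 29824 to 37010 in Cd151+/+ mice and 19115 to 37121 in Cd151-/- mice. *Col1a1*, a fibrillar collagen gene whose product ADAMTS2 processes, was chosen after its values were seen. It was detected in 3 mice of each genotype, with a log2 difference of 0.15 (95% interval −0.63 to 0.92, adjusted p = 0.954 from limma).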

How the data were processed

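Per the labels and the study's methods, total RNA of glomeruli from single mice was hybridised to MouseRef-8 v1.1 BeadChips. The authors deposited 1 table with a signal intensity, not normalised, and a detection p-value for each of 25697 probes on each of 8 arrays. All 16 value columns carried a sample title, and 0 were left unused.

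Intensities were background-corrected by normexp from the detection p-values, 16 was added, and arrays were quantile-normalised on the log2 scale (neqc, limma 3.58.1, R 4.3.3). The fit (lmFit and eBayes, no covariates) took every probe whose detection p-value reached 0.05 or less on any array. The fit was tested on simulated data. Mice are separate animals, and the labels do not pair them by number. The correlation of deviations between same-numbered mice was −0.60 to 0.0047. Same-numbered mice lay in opposite background sets, so these correlations cannot decide whether the numbers pair them. Old symbols were updated through RefSeq gene names (GRCm38.p6), which matched 17240 of 18120 symbols.

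Tested members with an unadjusted p below 0.05, with groups that did not overlap or among the 10 largest differences were named with values. So were *Adam9*, *Adam10*, *Adam15*, *Adam17*, *Adamts1*, *Adamts5* and *Adamts13*. Related genes were named at an unadjusted p below 0.05 or without overlap. Members, lists and array sets were chosen with earlier results of these data known. Alternatives changed background correction, normalisation, offset, filter, variance model, array weights, blocks and mice. SAM, which the methods name, was not run here.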

Additional observations from a re-analysis of the deposited data

Results flagged for a closer look

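*Adamts13* stood out for 1 mouse. Cd151+/+ mouse 3 read 5.87 on the normalised log2 scale and the other 3 Cd151+/+ mice 4.77 to 4.88, so the gap to its nearest neighbour made up 0.90 of the range of the group, above the 95% critical value of Dixon's test for 4 samples. It was the only Cd151+/+ array that detected the probe. It was 1 of 24 groups examined, 12 named genes in 2 genotypes, and chance alone exceeds this value in about 1 group in 20.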

How the results depend on the processing

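No member probe passed adjustment under any of the 20 alternatives. The count of members higher in Cd151-/- glomeruli at an unadjusted p of 0.05, 1 as reported, was 0 without background correction, with 75th percentile scaling, with an offset of 50, with a filter for detection in all 4 mice of a genotype, with trended and robust variance, with an equal-variance test and with a detection p-value of 0.01, the last chosen after seeing the data. It was 2 without a detection filter (*Adam12* and *Adam23*), 3 in the fit blocked on the array set and 4 with array weights (*Adam12*, *Adam17*, *Adam19* and *Adamts5*), and 0 to 3 when 1 mouse was left out. The count of lower members, 0 as reported, was 1 without a detection filter (*Adam25*) and 1 with array weights (*Adam15*), and 0 to 1 when 1 mouse was left out (1 without Cd151-/- mouse 2, *Adamts16*). No array detected *Adam23* or *Adam25*, so their calls compare background signals. Of the related genes, 1 was higher with 75th percentile scaling and 6 with array weights, compared with 2 as reported. Lower were 10 with array weights, 2 with the mouse number as a replicate block and 3 with an equal-variance test, compared with 6 as reported, and 1 to 7 when 1 mouse was left out. Over all probes, limma with array weights called 2343 of 14967 higher and 2503 lower at that p, compared with 246 and 395 without weights. Without a detection filter it called 431 of 25697 probes higher and 673 lower. The counts over all 14967 probes were 200 and 228 with the replicate block and 228 and 391 with an equal-variance test. They were 771 and 929 in the fit blocked on the array set and 139 and 250 with 75th percentile scaling. With 1 mouse left out, 114 to 636 probes were higher and 199 to 778 lower, so the counts of members and related genes changed along with those of all probes. The replicate block left 1 member higher, *Adamts2* (unadjusted p = 0.0480 from limma), and the labels do not pair the mice by number.

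The log2 difference kept its direction for 7 of the 12 named members under the alternatives in which they were tested. These were 17 of 20 for *Adamts12*, 18 for *Adam9*, 19 for *Adam12* and 20 for *Adam17*, *Adam19*, *Adamts2* and *Adamts16*. *Adamts12* passed the filter through 1 Cd151+/+ mouse only, in the genotype in which it was higher. Its constant direction is therefore not independent of the filter and is not read as stability. For *Adamts13* it reversed with 75th percentile scaling (−0.048). Leaving out 1 mouse gave −0.60 to 0.073 for *Adam15* (reversed without Cd151+/+ mouse 2), −0.078 to 0.50 for *Adamts5* (reversed without Cd151-/- mouse 2), −0.44 to 0.018 for *Adamts7* (reversed without Cd151-/- mouse 4) and −0.17 to 0.18 for *Adamts1* (reversed without Cd151+/+ mouse 1 or 4 and without Cd151-/- mouse 1 or 2). *Adamts2* ranged from 0.48 to 1.06 (unadjusted p from 0.00539 to 0.142 in limma). The cause of these changes was not tested. Dim probes and 4 mice per genotype limit the precision.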
